A study of Mus musculus with 18 samples.

Results

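The subunit genes of the interleukin-12 family were followed in bone marrow-derived macrophages (BMDMs) of the mouse. The members were chosen by name, as the genes Il12a, Il12b, Il23a, Ebi3 and Il27, and all 5 were found among the 50600 genes of the count table. All 5 also passed the filter on low counts, which left 15663 genes for the tests. The cytokines of this family are pairs of 2 chains made from separate genes. Il12b encodes p40, which pairs with p35 (Il12a) to form IL-12 and with p19 (Il23a) to form IL-23. Ebi3 encodes the chain that pairs with p28 (Il27) to form IL-27, and it can also pair with p35 to form IL-35. Macrophages and dendritic cells make these cytokines when Toll-like receptors sense microbes. IL-12 drives T cells and natural killer cells towards interferon-gamma, IL-23 sustains T cells that make IL-17, and IL-27 both activates and restrains T cells. IRF5 is a transcription factor known to activate Il12a, Il12b and Il23a in macrophages.

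BMDMs were grown with recombinant GM-CSF for 8 days from WT mice and from mice labelled IRF5ko, here IRF5 KO. All LPS-stimulated cells were first treated for 1 h, with the vehicle DMSO or with 3.5 μM defactinib, an inhibitor of the kinases FAK and PYK2, and then received 100 ng/ml LPS for 2 h. With the unstimulated cells (0 h of LPS) this made 6 groups of 3 libraries, in that each genotype had cells left unstimulated, cells given LPS after DMSO (named LPS DMSO) and cells given LPS after defactinib (named LPS defactinib). The unstimulated samples are titled DMSO and their columns carry an untreated mark, so that vehicle in these cells is uncertain, and no group received defactinib without LPS. Age of the mice, strain of the IRF5 KO line and the deleted part of the gene are not given in the labels used here. The design gives 3 biological replicates per condition, and no source says which libraries come from the same mouse. Levels are given as CPM, the share of a library's read pairs on the usual scale of the RNA-seq field, after scaling of library sizes by the trimmed mean of M values (TMM). A gene was called higher or lower when edgeR's quasi-likelihood test gave an adjusted p below 0.05 and the fold change was beyond 2 (a log2 fold change beyond 1).

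Between 39282181 and 61949143 read pairs were counted per library. Irf5 itself was still counted in the IRF5 KO libraries, at 335 to 397 CPM unstimulated against 587 to 650 CPM in WT, and at 345 to 435 CPM against 434 to 475 CPM after LPS with DMSO, so that counts over the whole gene did not separate the genotypes after LPS and give no check of the labels there. IRF5 KO LPS DMSO replicates 1 and 2 were nearly alike, with a chi-square of 2.33 per gene. Replicate 3 stood apart from them at 425 and 441, against 3.82 to 183 within the other groups. WT unstimulated replicates 1 and 2 were a close pair as well, at 3.82. So were replicates 1 and 3 of IRF5 KO LPS defactinib, at 4.79, and of IRF5 KO unstimulated, at 7.09. WT LPS defactinib replicate 3 also stood apart from replicates 1 and 2, at 140 and 183, although these 2 differed from each other as well, at 84.1. No source used here says whether the libraries of the close pairs, IRF5 KO LPS DMSO replicates 1 and 2 included, come from separate cultures. In these groups n = 3 and the p-values are therefore uncertain. Whether IRF5 KO LPS DMSO replicate 3 carries the right label was not tested, which adds to the uncertainty for its group. Where replicate 3 is used as the only library of its group, the p-values take the spread from the other groups and assume that this library varies as those do. The 8 macrophage markers summed to between 9376 and 18878 CPM per library and the 9 dendritic cell markers to between 3687 and 6448 CPM, while those of T, B and NK cells reached at most 1.77, 3.20 and 0.500 CPM. The 5 mast cell and basophil markers summed to 42.7 to 72.4 CPM in the IRF5 KO libraries and 7.89 to 15.5 CPM in the WT libraries, mainly through Gata2, at 25.9 to 51.5 and 0.313 to 4.32 CPM. In bulk RNA, fewer cells of a type and less RNA per cell cannot be told apart.

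The members lie on 5 chromosomes of the mm10 genome. Il12b (ENSMUSG00000004296) spans chr11:44400063-44414033 on the plus strand, Il12a (ENSMUSG00000027776) chr3:68690644-68698547 on the plus strand, Il23a (ENSMUSG00000025383) chr10:128296139-128298752 on the minus strand, Il27 (ENSMUSG00000044701) chr7:126589010-126594941 on the minus strand and Ebi3 (ENSMUSG00000003206) chr17:55952623-55957021 on the plus strand. All are protein-coding, and a count covers all annotated exons of the gene, untranslated exon parts included. Ebi3 overlaps Gm16712 and Il27 overlaps Apobr, each on the opposite strand, and the counting kept the strands apart.

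Promoters from RefSeq (GRCm38.p6) were matched for 3 of the 5 members, Il12b, Il12a and Ebi3. The 250 bases before the start annotated in the count table are shown 5′ to 3′ for these 3 genes on the plus strand, since Il12b rose and fell far more than Ebi3. Capitals mark the matches of the motifs searched on both strands.
Il12b promoter (chr11:44399813-44400062): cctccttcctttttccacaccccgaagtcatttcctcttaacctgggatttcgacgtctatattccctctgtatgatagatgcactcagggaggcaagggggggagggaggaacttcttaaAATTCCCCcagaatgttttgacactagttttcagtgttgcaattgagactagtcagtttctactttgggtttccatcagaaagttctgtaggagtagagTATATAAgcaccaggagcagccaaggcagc
Il12a promoter (chr3:68690394-68690643): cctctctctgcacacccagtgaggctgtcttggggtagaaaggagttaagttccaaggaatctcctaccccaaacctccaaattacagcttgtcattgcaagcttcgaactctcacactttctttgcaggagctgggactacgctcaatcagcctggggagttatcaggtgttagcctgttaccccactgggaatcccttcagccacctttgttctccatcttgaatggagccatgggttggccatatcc
Ebi3 promoter (chr17:55952373-55952622): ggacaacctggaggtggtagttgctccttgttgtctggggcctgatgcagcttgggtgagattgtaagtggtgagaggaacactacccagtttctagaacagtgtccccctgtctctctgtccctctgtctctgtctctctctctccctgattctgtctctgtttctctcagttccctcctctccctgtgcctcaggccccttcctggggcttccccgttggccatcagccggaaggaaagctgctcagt
In Il12b the capitals mark AATTCCCC, part of a half-site for NF-kB known from studies of this promoter, 129 to 122 bases before the start, and the TATA box TATATAA, 30 to 24 bases before it. These 2 motifs were added after the Il12b sequence had been seen. They occur in 0.734% and 3.04% of the 32851 promoters in the table, and neither occurs in the Il12a or Ebi3 windows. The motifs searched first were an interferon-stimulated response element (ISRE; GAAA and GAAA, any 2 bases apart), a kB site (GGG and TTTCC 2 bases apart, or GGG and TTCC 3 bases apart), AP-1 (TGANTCA), C/EBP (TTGCNNAA) and Ets (GAGGAAG). These letters occur in 2.98%, 4.65%, 6.75%, 9.56% and 10.6% of all promoters, and none of them in the windows of these 3 genes, the second Il12a start included. Only these letters were searched. Other forms of these sites were not looked for, so that their absence from any of the 3 windows is not shown.

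Il12b, the p40 chain shared by IL-12 and IL-23, ran at 2.86, 2.50 and 4.35 CPM in the 3 WT unstimulated libraries and at 2137, 2760 and 2228 CPM after LPS with DMSO. WT LPS defactinib libraries held 65.0, 15.8 and 28.7 CPM. No WT group overlapped with another, and the defactinib libraries lay nearer to the unstimulated than to the LPS DMSO libraries. In IRF5 KO, Il12b was at 5.02, 6.27 and 5.45 CPM unstimulated, at 610, 616 and 577 CPM after LPS with DMSO and at 1079, 1017 and 1078 CPM after LPS with defactinib. The order of the groups was therefore WT LPS DMSO, IRF5 KO LPS defactinib, IRF5 KO LPS DMSO, WT LPS defactinib and then unstimulated cells of IRF5 KO and of WT, with no overlap between neighbours. The last 2 were not called apart. The 3 IRF5 KO LPS DMSO libraries were close to each other for Il12b in CPM, although replicate 3 stood apart over all genes. In TPM, a level divided by exon length and not scaled by TMM, they were at 609, 612 and 787.

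Il12a, the p35 chain of IL-12, was near the limit of detection without LPS, at 0.0375, 0.0169 and 0.0825 CPM in WT and 0, 0.0770 and 0.0590 CPM in IRF5 KO, which is 0 to 4 read pairs per library. After LPS with DMSO it was at 10.1, 8.54 and 5.69 CPM in WT. The WT LPS defactinib libraries were divided, at 0.233, 0.0481 and 4.16 CPM, of which replicates 1 and 2 lay among or just above the unstimulated libraries and replicate 3 just below WT LPS DMSO. IRF5 KO LPS DMSO was divided likewise, at 0.509, 0.583 and 2.60 CPM. IRF5 KO LPS defactinib gave 2.00, 2.33 and 1.75 CPM. All LPS libraries of IRF5 KO lay below all of WT LPS DMSO, and replicate 3 of IRF5 KO LPS DMSO lay above the defactinib libraries while replicates 1 and 2 lay below them.

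Il23a, the p19 chain particular to IL-23, was at 0.0562, 0.0169 and 0.0412 CPM in WT and 0.0935, 0.0962 and 0.138 CPM in IRF5 KO without LPS, from 1 to 7 read pairs. In WT it reached 40.9, 28.8 and 25.7 CPM after LPS with DMSO and 4.88, 1.59 and 1.77 CPM after LPS with defactinib. The 3 WT groups did not overlap. In IRF5 KO the LPS DMSO libraries were at 14.3, 14.4 and 38.8 CPM and the LPS defactinib libraries at 28.2, 29.2 and 30.5 CPM. Replicate 3 with DMSO was within the range of WT LPS DMSO and replicates 1 and 2 were below it, so that the 3 libraries enclosed the defactinib group.

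Il27, the p28 chain of IL-27, was at 0.131, 0.203 and 0.206 CPM in WT unstimulated libraries and at 103, 129 and 81.9 CPM after LPS with DMSO. After LPS with defactinib the WT libraries held 0.186, 0.265 and 0.848 CPM, which overlapped with unstimulated WT. In IRF5 KO the values were 0.234, 0.231 and 0.374 CPM unstimulated, 0.121, 0.106 and 15.6 CPM after LPS with DMSO and 0.349, 0.582 and 0.0797 CPM after LPS with defactinib. A level well above that of unstimulated cells was thus seen in all 3 WT LPS DMSO libraries and in 1 IRF5 KO library. In read pairs, the IRF5 KO LPS DMSO libraries held 5, 4 and 799.

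Ebi3, the partner chain of p28, was the member with the highest level in unstimulated cells (55.9 ± 2.29 TPM in WT, SD, n = 3, where TPM is a level divided by exon length), and it changed least of the members with LPS in either genotype and with defactinib in WT. It was at 22.2, 23.9 and 25.9 CPM in unstimulated WT, 96.6, 116 and 88.0 CPM in WT LPS DMSO and 35.5, 45.8 and 70.6 CPM in WT LPS defactinib. These 3 groups did not overlap, and the defactinib libraries lay between the other 2 groups. In IRF5 KO it was at 25.5, 27.6 and 30.2 CPM unstimulated, 64.7, 62.6 and 70.7 CPM after LPS with DMSO and 57.2, 68.6 and 59.7 CPM after LPS with defactinib. Both IRF5 KO LPS groups overlapped with each other, lay below WT LPS DMSO and lay above all unstimulated libraries.

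**Figure D1:**
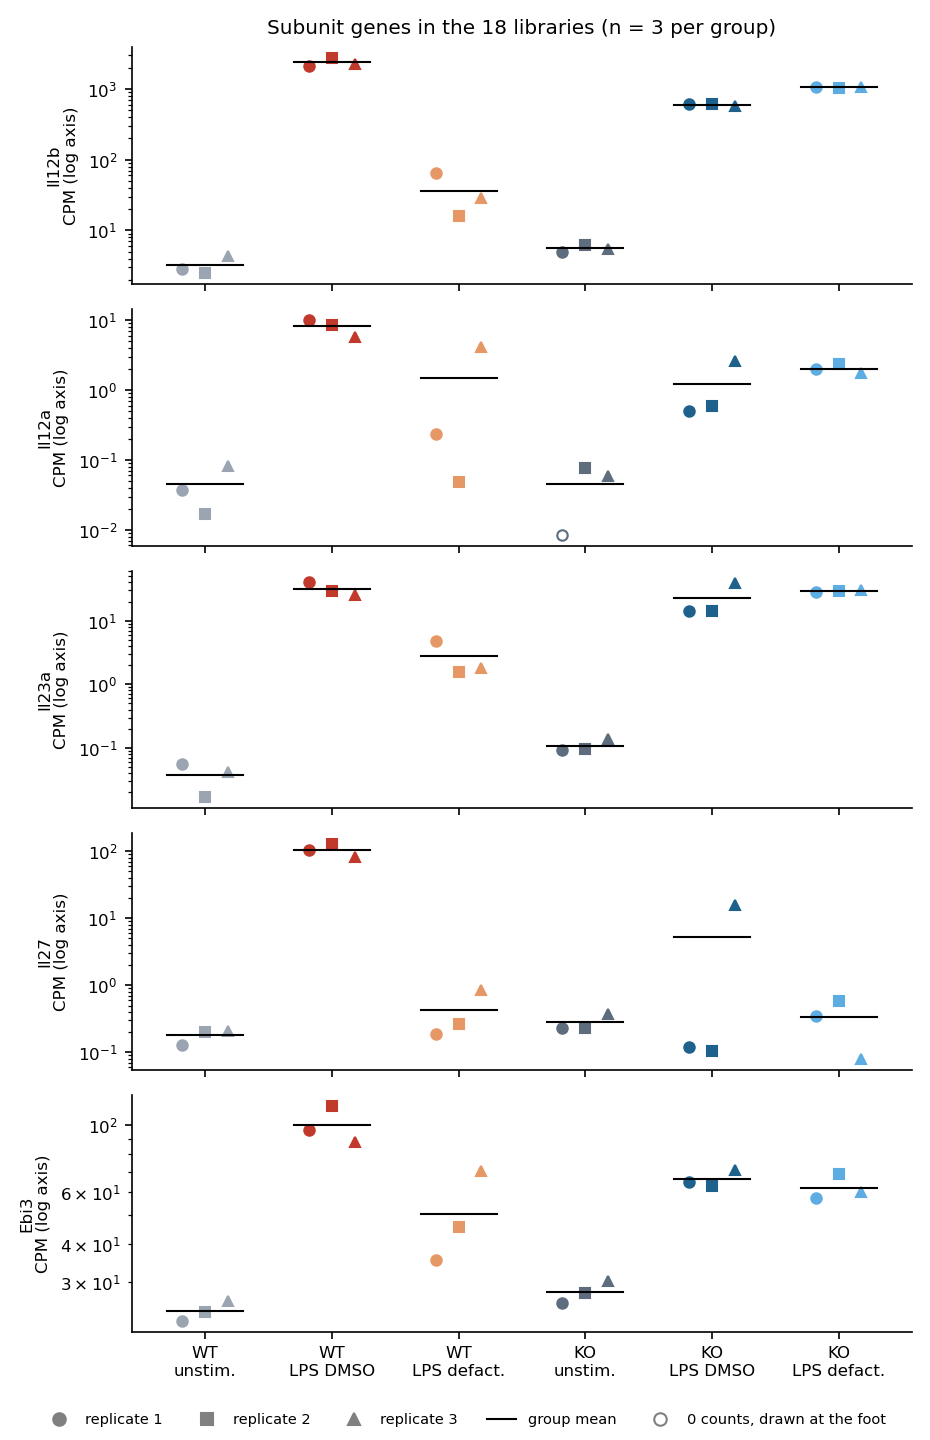
Level of each member (CPM, log axis) in every library, by group, with symbols for the replicate number and a line at the mean of the 3 libraries; an open symbol marks a library with 0 read pairs. The 6 groups do not overlap for Il12b, and Il27 is high in WT LPS DMSO (81.9 to 129 CPM) and in 1 IRF5 KO library (15.6 CPM).

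The first comparison asks which members LPS induced after 2 h in each genotype. All 5 members rose in WT, where 11.6% of all tested genes were called higher. Il12b rose by 9.52 on the log2 scale (SE 0.49, adjusted p = 2.6e-09), Il23a by 9.64 (SE 0.68, adjusted p = 5.2e-08), Il27 by 9.16 (SE 1.48, adjusted p = 0.00015), Il12a by 7.45 (SE 1.35, adjusted p = 0.000399) and Ebi3 by 2.06 (SE 0.19, adjusted p = 5.7e-07). The fitted sizes for Il12a and Il23a rest on unstimulated libraries with 1 to 4 and 1 to 3 read pairs. The median over the members was 9.16, beside −0.0045 over all genes. Summed neutrophil markers were higher with LPS as well, from 43.5 to 59.8 CPM to 91.8 to 174 CPM in WT, with 4 of 5 tested called higher, and from 51.3 to 61.96 CPM to 118 to 123 CPM in IRF5 KO, with 3 of 5. Summed dendritic cell markers went from 5182 to 5331 CPM to 5460 to 6448 CPM in WT, with 2 of 8 tested called higher, and from 3687 to 3929 CPM to 4539 to 6281 CPM in IRF5 KO, with 0 of 8. Mast cell and basophil markers were at 10 to 11.2 CPM unstimulated and 13.4 to 15.5 CPM with LPS in WT, with 1 of 4 tested called higher, and overlapped in IRF5 KO. The part of these 3 lists was not tested. In IRF5 KO all 5 were called higher too, where 7.07% of genes were. Il23a rose by 7.67 (SE 0.59, adjusted p = 9.00e-07), Il12b by 6.75 (SE 0.44, adjusted p = 1.4e-07), Il12a by 4.79 (SE 1.36, adjusted p = 0.0154) and Ebi3 by 1.25 (SE 0.19, adjusted p = 0.00052). The value for Il27, 4.26 (SE 1.28, adjusted p = 0.0198), rested on replicate 3 with DMSO. Without that library it was −1.26 (adjusted p = 0.236), and Il12a was at 3.61 (adjusted p = 0.0839), so that 3 members were called. Il12a also lost its call without IRF5 KO unstimulated replicate 1, at 4.15 (adjusted p = 0.0576), and Il27 without any of the 3 unstimulated IRF5 KO libraries, at 4.14 to 4.51 (adjusted p of 0.0555 to 0.065), or by limma-voom, at 1.48 (adjusted p = 0.452).

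The second comparison asks what defactinib did to the LPS response of WT cells. The inhibitor lowered 4 of the 5 members, where 18.6% of all genes were called lower and 10.4% higher. On the log2 scale Il27 was at −7.93 (SE 1.38, adjusted p = 0.00023), Il12b at −6.02 (SE 0.42, adjusted p = 4.1e-08), Il23a at −3.53 (SE 0.44, adjusted p = 1.1e-05) and Il12a at −2.46 (SE 0.95, adjusted p = 0.0381). In fold terms Il12b was 65.1-fold and Il23a 11.5-fold lower. Ebi3 was at −0.99 (SE 0.19, adjusted p = 0.00036), lower in all 3 libraries and just short of the fold threshold. The median over the members was −3.53, beside 0.086 over all genes. The Il12a call was not firm. It was lost by DESeq2 (−2.46, adjusted p = 0.056), with no filter on low counts (adjusted p = 0.0938), when only the groups compared were fitted (adjusted p = 0.171) and with the threshold inside the test (adjusted p = 0.190). It was also lost without WT LPS DMSO replicate 1 or 2, or without WT LPS defactinib replicate 1 or 2, with values of −1.87 to −2.40 (adjusted p of 0.0734 to 0.111), and its value was −5.81 (adjusted p = 7.02e-05) without WT LPS defactinib replicate 3. Ebi3 was called without that library, at −1.28 (adjusted p = 8.2e-06), and without WT LPS DMSO replicate 3, at −1.05 (adjusted p = 0.00084). Summed macrophage markers were at 10736 to 15171 CPM with defactinib and 9376 to 9876 CPM with DMSO, with 2 of 8 called higher and 1 lower. Summed dendritic cell markers were lower, at 4525 to 5353 CPM against 5460 to 6448 CPM, with 1 of 8 tested called higher and 2 lower. Mast cell and basophil markers were lower too, at 7.89 to 11.2 CPM against 13.4 to 15.5 CPM, with 2 of 4 tested called lower. The part of these 3 lists in the differences was not tested.

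Defactinib did not abolish induction of every member in WT. Against WT unstimulated cells, WT LPS defactinib cells still had 4 members called higher, where 9.1% of genes were called higher. Il23a was at 6.11 (SE 0.70, adjusted p = 9.9e-06), Il12a at 4.98 (SE 1.36, adjusted p = 0.00692), Il12b at 3.50 (SE 0.38, adjusted p = 7.2e-06) and Ebi3 at 1.08 (SE 0.19, adjusted p = 0.00028). Il27 was at 1.23 with a 95% interval of −2.26 to 4.72 (adjusted p = 0.548). Without WT LPS defactinib replicate 3, Il12a was at 1.64 (adjusted p = 0.239) and Ebi3 at 0.78 (adjusted p = 0.00062), and Il12b and Il23a alone remained called. The Il12a call was also lost by limma-voom, at 3.02 (adjusted p = 0.141), and when only the groups compared were fitted (adjusted p = 0.0505). Macrophage markers (9785 to 10129 CPM unstimulated, 10736 to 15171 CPM with LPS and defactinib) and neutrophil markers (43.5 to 59.8 and 100.1 to 124 CPM) moved in this comparison too, and their part was not tested.

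The same inhibitor was given to IRF5 KO cells, which asks whether its effect on these genes was also present in the knockout. None of the 5 members was called by edgeR between the LPS-stimulated cells with and without the inhibitor, where 0.919% of all genes were called in either direction. That share was 144 genes and was not stable, since leaving out 1 library at a time gave between 20 and 897. At an unadjusted p under 0.05 there were 2 members, Il12b and Il27, and DESeq2 called 1, Il27, and limma-voom 0. Il12b was at 0.82 (SE 0.34, 95% interval 0.093 to 1.54, adjusted p = 0.165), and all 3 defactinib libraries lay above all 3 DMSO libraries. Ebi3 was at −0.094 (95% interval −0.48 to 0.30), Il23a at 0.38 (−0.45 to 1.21) and Il12a at 0.70 (−1.30 to 2.69). Il27 was at −3.95 (SE 1.27, adjusted p = 0.0869) with all 3 DMSO libraries and at 1.59 (adjusted p = 0.284) without replicate 3. It was called without replicate 1 or 2, at −4.53 and −4.52 (adjusted p of 0.0224 and 0.0239). Without replicate 3 with DMSO, Il12a was at 1.89 and Il23a at 1.03 (adjusted p of 0.322 and 0.0543). With replicate 3 as the sole DMSO library they were at −0.37 and −0.42. Il12b kept nearly the same value in all 3 cases, 0.79 to 0.86, and Ebi3 stayed between −0.21 and −0.042. The macrophage markers summed to 17949 to 18878 CPM with defactinib and 9607 to 12319 CPM with DMSO in these cells, and their part was not tested. In IRF5 KO cells stimulated in the presence of defactinib, 4 members stayed above unstimulated cells, where 7.85% of genes were called higher. Il23a was at 8.05 (SE 0.60, adjusted p = 3.7e-07), Il12b at 7.57 (SE 0.45, adjusted p = 3.8e-08), Il12a at 5.49 (SE 1.34, adjusted p = 0.0034) and Ebi3 at 1.16 (SE 0.19, adjusted p = 0.00022), with Il27 at 0.32 (95% interval −2.96 to 3.60). In this comparison 3 marker lists were higher without overlap than in unstimulated IRF5 KO cells, and their part was not tested. The macrophage markers were at 17949 to 18878 CPM against 10297 to 14649 CPM, with 0 of 8 called higher and 1 lower. Dendritic cell markers were at 5145 to 5602 CPM against 3687 to 3929 CPM, with 2 of 8 tested called higher, and neutrophil markers at 121 to 146 CPM against 51.3 to 61.96 CPM, with 2 of 5.

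The genotypes were compared next. In unstimulated cells none of the 5 members was called by edgeR, DESeq2 or limma-voom, where 7.31% of genes were called by edgeR in either direction. At an unadjusted p under 0.05 there was 1, Il12b, at −0.79 in WT relative to IRF5 KO (SE 0.36, adjusted p = 0.177). After LPS with DMSO, 3 members were higher in WT, where 14% of genes were called higher and 11.8% lower. Il27 was at 4.28 (SE 1.11, adjusted p = 0.00505), Il12a at 2.69 (SE 0.96, adjusted p = 0.0286) and Il12b at 1.98 (SE 0.35, adjusted p = 0.00031). Ebi3 was at 0.60 (SE 0.18, adjusted p = 0.0125), which is under the fold threshold, and Il23a at 0.50 (95% interval −0.33 to 1.33, adjusted p = 0.296).

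Of these genotype differences, that of Il12b hardly depended on which IRF5 KO LPS DMSO libraries were used, at 1.95 without replicate 3 and 2.03 with replicate 3 alone. Without replicate 3, Il23a was called at 1.15 (adjusted p = 0.00447), Il12a was at 3.89 (adjusted p = 0.00717) and Il27 at 9.81 (adjusted p = 9.9e-10). With replicate 3 as the only library of its group, Il23a was at −0.30 (adjusted p = 0.572), Il12a at 1.63 (adjusted p = 0.344) and Il27 at 2.73 (adjusted p = 0.00045). The Il12a call was also lost when replicate 1 or 2 of either group was left out, at 2.31 to 2.64 (adjusted p of 0.0568 to 0.0945), with no filter on low counts (adjusted p = 0.0780) and with the threshold inside the test (adjusted p = 0.157). The Il27 call was lost when only the groups compared were fitted, at 4.24 (adjusted p = 0.101). The mast cell and basophil markers also moved with genotype (13.4 to 15.5 CPM in WT LPS DMSO and 42.7 to 72.4 CPM in IRF5 KO LPS DMSO), and their part was not tested. The summed dendritic cell markers overlapped, at 5460 to 6448 and 4539 to 6281 CPM.

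**Figure D2:**
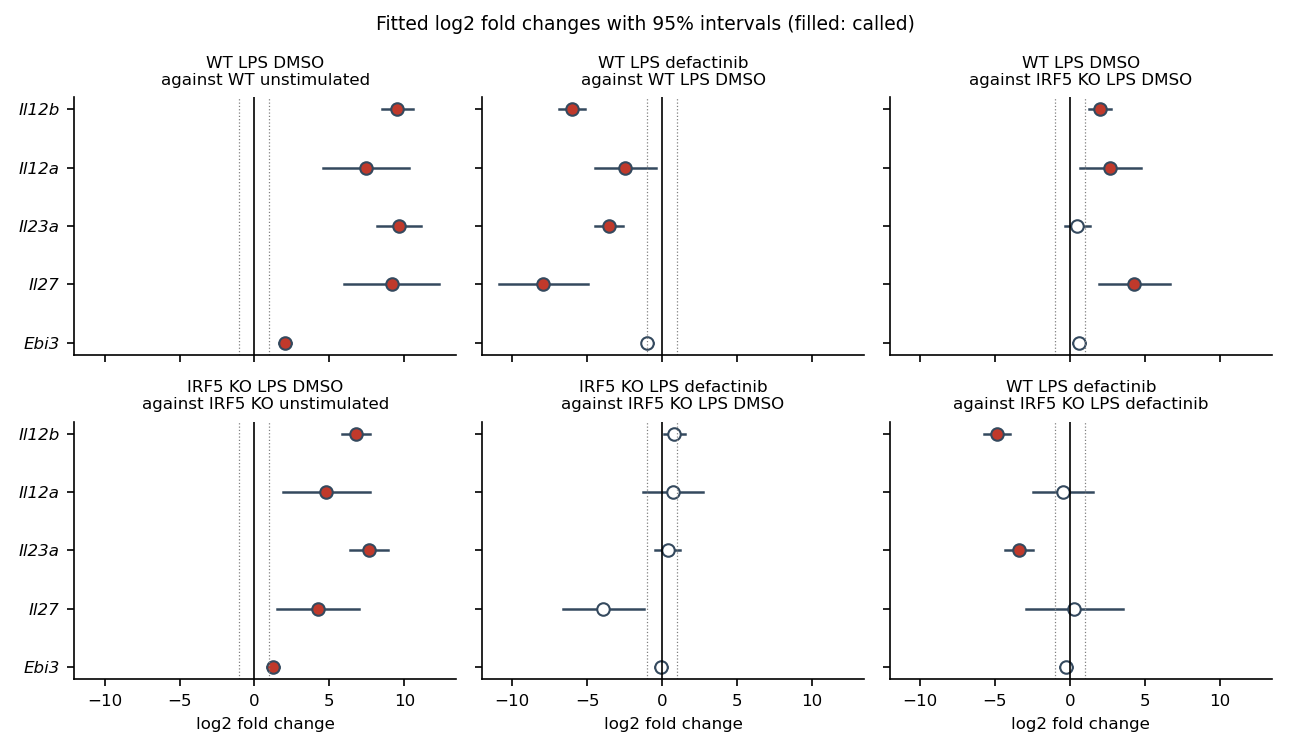
Fitted log2 fold change of each member in 6 comparisons, with 95% intervals; filled points were called, dotted lines mark a fold change of 2 and n = 3 libraries per group. Defactinib lowered Il12b, Il12a, Il23a and Il27 in WT, and no member was called for defactinib in IRF5 KO.

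**Figure D3:**
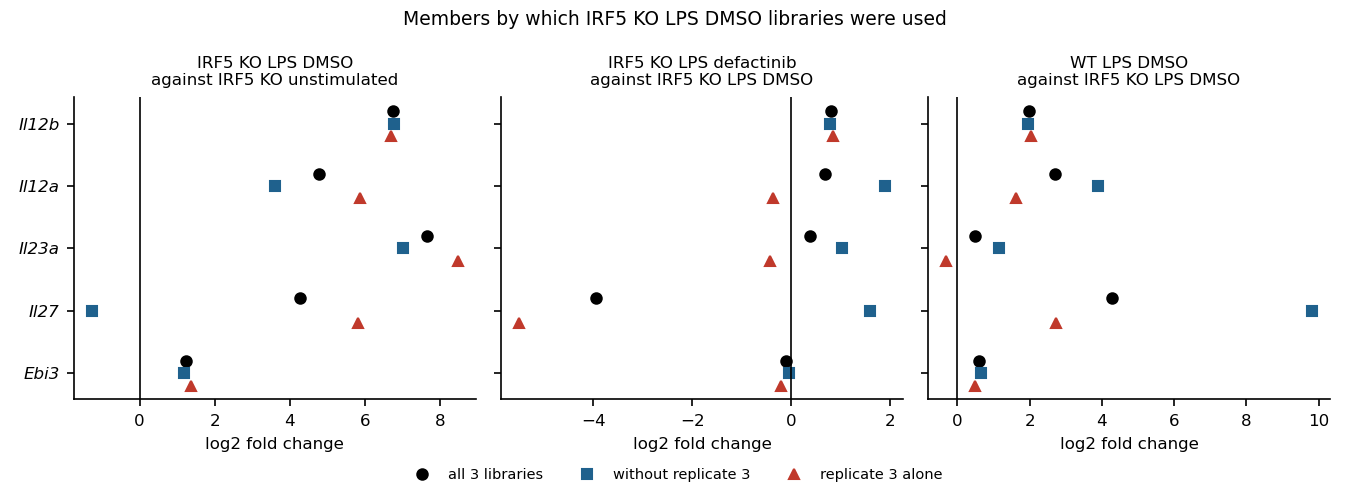
Log2 fold change of each member in 3 comparisons that use IRF5 KO LPS DMSO, with all 3 of its libraries, without replicate 3, and with replicate 3 alone. Il12b and Ebi3 hardly moved, while Il27 in the comparison with unstimulated IRF5 KO went from 4.26 to −1.26 without replicate 3.

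The interaction of genotype with treatment tests these differences directly. For LPS, the rise of Il12b was 2.77 larger in WT than in IRF5 KO on the log2 scale (SE 0.50, adjusted p = 0.00219), and it was the 1 member called, where 6.33% of genes were called higher. This call was lost with the threshold inside the test (adjusted p = 0.0509). The rise of Ebi3 was 0.81 larger (SE 0.26, adjusted p = 0.0423), below the fold threshold. Il12a and Il23a were at 2.65 and 1.97 (adjusted p of 0.450 and 0.227), and Il27 at 4.89 (SE 1.97, adjusted p = 0.0989), with all libraries. Without IRF5 KO LPS DMSO replicate 3, Il27 was at 10.42 (adjusted p = 5.3e-07), and with replicate 3 as the only library of its group at 3.33. Without replicate 3, 3741 genes were called in either direction, against 1539 with all libraries. For defactinib, the effect in WT was lower than that in IRF5 KO with a difference of −6.84 for Il12b (SE 0.52, adjusted p = 2.5e-07) and −3.91 for Il23a (SE 0.58, adjusted p = 0.000104), 2 members of 5, where 12.3% of genes were called lower. Ebi3 was at −0.89 (SE 0.26, adjusted p = 0.0136), Il12a at −3.16 (SE 1.33, adjusted p = 0.0747) and Il27 at −3.98 (SE 1.85, adjusted p = 0.106). Without IRF5 KO LPS DMSO replicate 3 the last 2 were called, at −4.37 (adjusted p = 0.0162) and −9.53 (adjusted p = 4.3e-07). With replicate 3 as the only library of its group, Il12a was at −2.08 and Il27 at −2.42. Without WT LPS defactinib replicate 3, Il12a at −6.48 (adjusted p = 0.00018) and Ebi3 at −1.17 (adjusted p = 0.00029) were called.

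With defactinib, the 2 chains of IL-23 were lower in WT than in IRF5 KO. For Il12b this was the reverse of the call with DMSO, while Il23a had not been called between the genotypes with DMSO. WT LPS defactinib cells held less Il12b than IRF5 KO LPS defactinib cells, at −4.86 on the log2 scale or 29.0-fold (SE 0.40, adjusted p = 2.4e-07), and less Il23a at −3.41 or 10.6-fold (SE 0.44, adjusted p = 2.2e-05). These were the 2 members called, where 8.87% of genes were called lower. Ebi3 was at −0.29 (95% interval −0.68 to 0.10), Il27 at 0.30 (−2.93 to 3.52) and Il12a at −0.47 (−2.46 to 1.52). Il12a was at −3.81 (adjusted p = 0.0027) without WT LPS defactinib replicate 3. Between these groups the macrophage markers (10736 to 15171 CPM in WT, 17949 to 18878 CPM in IRF5 KO) and the mast cell and basophil markers (7.89 to 11.2 and 43.1 to 48.0 CPM) did not overlap, and their part was not tested. WT cells with the inhibitor can also be set against IRF5 KO cells with vehicle. There Il12b was lower in inhibitor-treated WT cells, at −4.04 (SE 0.38, adjusted p = 1.7e-06), as was Il23a, at −3.03 (SE 0.43, adjusted p = 7.9e-05), and Il27 was at −3.65 (SE 1.25, adjusted p = 0.0371). These 3 were called lower, where 10.3% of genes were. The mast cell and basophil markers were again lower in WT, at 7.89 to 11.2 CPM against 42.7 to 72.4 CPM, with 3 of 4 tested called, and their part was not tested. Il27 turned to 1.87 (adjusted p = 0.0918) without IRF5 KO LPS DMSO replicate 3, and lost its call without WT LPS defactinib replicate 1 or 2, at −3.26 and −3.40 (adjusted p of 0.107 and 0.105), and by limma-voom, at −1.13 (adjusted p = 0.620). Ebi3 was at −0.38 (95% interval −0.77 to 0.0075) and Il12a at 0.23 (−1.79 to 2.25), and Il12a was called at −3.13 (adjusted p = 0.011) without WT LPS defactinib replicate 3. These comparisons share libraries with those above.

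Levels of different genes were compared per length, as TPM (counts divided by exon length and scaled to the same total in every library). In WT LPS DMSO, the level of Il12b was 2540 ± 410 TPM (SD, n = 3), of Il27 215 ± 52.0, of Ebi3 180 ± 29.2, of Il23a 29.7 ± 7.20 and of Il12a 10 ± 2.74 TPM. Transcripts of p40 were thus far above those of both of its partners, and p28 and its partner Ebi3 were at like levels, with overlapping libraries. Within each library, Il12b was 183 to 338 times the Il12a level and 59.7 to 109 times the Il23a level. In IRF5 KO LPS DMSO replicates 1 and 2 and all IRF5 KO LPS defactinib libraries the ratio of Il12b to Il12a was at least 378, and in replicate 3 with DMSO 192. In WT LPS defactinib it was 242 in replicate 1 and 5.97 in replicate 3. The ratio of Il12b to Il23a was 11.3 to 18.5 in WT LPS defactinib. In IRF5 KO it was 16.99 to 48.97 with DMSO and 39.8 to 43.7 with defactinib, all below WT LPS DMSO. Il23a was 2.55 to 3.42 times Il12a in WT LPS DMSO, and 9.50 to 21.2 times in the IRF5 KO LPS libraries, without overlap. In WT LPS defactinib this ratio was 15.9 in replicate 1 and 0.322 in replicate 3, on both sides of WT LPS DMSO.

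The 2 chains of IL-27 were near equal in level in WT LPS DMSO, where the ratio of Ebi3 to Il27 TPM was 0.788 to 0.938. In the libraries of the unstimulated groups and of the defactinib groups with at least 10 read pairs of both genes it was 70.4 to 151, and it was 3.95 in IRF5 KO LPS DMSO replicate 3. These ratios follow from the large range of Il27 and the small range of Ebi3.

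**Figure D4:**
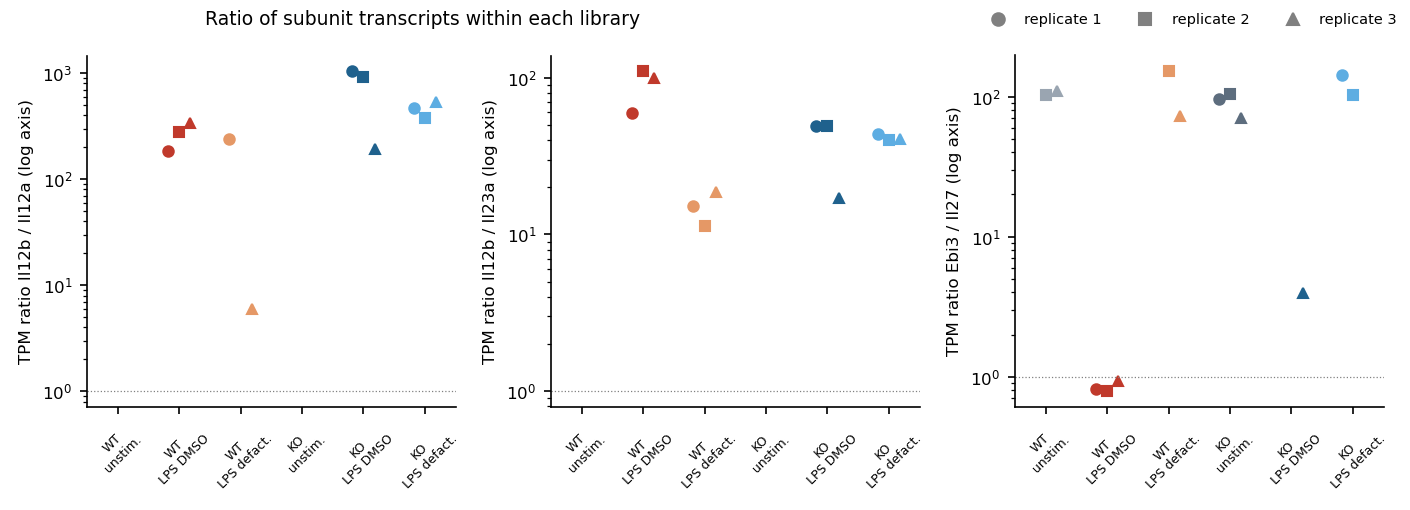
Ratio of the TPM of 2 subunit genes within each library (log axis), by group, for libraries with at least 10 read pairs of both genes; the dotted line marks a ratio of 1. Ebi3 and Il27 are near 1 to 1 in WT LPS DMSO and lie at 70.4 or above in the unstimulated and defactinib libraries shown.

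The members were also compared by the likeness of their pattern, as Pearson's r of log2 CPM over the 18 libraries, a description without a test since the libraries share groups and normalization. Among the members r was highest for Il12b with Il23a (0.974) and lowest for Il23a with Il27 (0.501). Of the 10905 other genes with a symbol and a mean log2 CPM of at least 1, Il12b was most like Peli1, an E3 ligase of Toll-like receptor signalling (0.990), Dusp14 (0.978) and Ankrd33b (0.977). Il23a was most like Ptgs2, the inducible cyclooxygenase (0.981), Dusp14 (0.978) and Ccrl2 (0.9745). Il27 was most like Gm20186 (0.976) and the interferon-stimulated genes Mx2 (0.973) and Rsad2 (0.973). Il12a was most like Il1b, the cytokine interleukin-1 beta (0.971), Smarce1-ps1 (0.960) and Gm8494 (0.953), and Ebi3 was most like Basp1 (0.968), Adgrg6 (0.968) and Fscn1, an actin-bundling protein of mature dendritic cells (0.964).

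The receptors of these cytokines were low or moderate in level, and 2 of the 5 rose with LPS in WT, where 11.6% of all genes were called higher. Il12rb2, a signalling chain of the IL-12 receptor, went from 32.4 to 36.3 CPM unstimulated to 85.5 to 101 CPM in WT LPS DMSO, a rise of 1.46 on the log2 scale (adjusted p = 0.00011). Il23r, the IL-23 receptor, rose by 2.83 (adjusted p = 0.0015) from at most 0.375 to at most 2.41 CPM. Il6st, the gp130 chain used by IL-27, was lowered by LPS from 148 to 185 CPM to 47.5 to 56.1 CPM, −1.72 (adjusted p = 2.1e-08), where 9.71% of genes were called lower. Il12rb1, the chain shared by the receptors of IL-12 and IL-23, was at −0.72 (adjusted p = 0.0576; with library size alone it was called, at −1.09) and Il27ra at −0.018 (adjusted p = 0.957). No receptor was called higher with LPS in IRF5 KO, where 7.07% of all genes were. Without LPS, Il12rb1 was lower in WT than in IRF5 KO, at −2.10 (adjusted p = 5.4e-05). Of all genes, 7.31% were called in either direction in that comparison. After LPS with DMSO, Il12rb1 was lower in WT again, at −1.94 (adjusted p = 6.04e-05), as was Il6st, at −1.03 (adjusted p = 3.8e-06). Il12rb2 was higher in WT than in IRF5 KO after LPS with DMSO, by 1.52 (adjusted p = 8.4e-05), and Il23r by 1.98 (adjusted p = 0.0110). Of all genes, 14% were called higher and 11.8% lower there. Without IRF5 KO LPS DMSO replicate 3, Il6st was under the fold threshold, at −0.89, and Il27ra was called lower in WT, at −1.22 (adjusted p = 3.47e-07). With replicate 3 as the only library of its group, Il23r was not called, at 1.34 (adjusted p = 0.191). With defactinib in WT none of the 5 was called, where 18.6% of all genes were called lower and 10.4% higher, with Il23r at −1.29 (adjusted p = 0.0648) and Il12rb2 at −0.84 (adjusted p = 0.00558). Without WT LPS defactinib replicate 3, Il23r was called at −2.41 (adjusted p = 0.00184) and Il12rb2 at −1.33 (adjusted p = 4.91e-07), and Il23r was also called, at −1.30 (adjusted p = 0.0337), without IRF5 KO LPS DMSO replicate 3.

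Of the 6 kinases and STAT factors that these receptors signal through, 3 rose with LPS in WT, beside 11.6% of all genes, and none was called with defactinib in WT, where 18.6% of all genes were called lower and 10.4% higher. Stat3 was among them, at 1.05 (adjusted p = 0.00028), and it was 1.10 higher in WT than in IRF5 KO after LPS (adjusted p = 0.00019). With library size alone both calls of Stat3 were lost, at 0.67 and 0.85. The other genes named by the rule were below the fold threshold in both comparisons, with Jak2 at 0.90 and 0.47, Jak1 at 0.61 and −0.086 and Tyk2 at −0.047 and −0.63. Without WT LPS defactinib replicate 3, 2 of the 6 were called lower with defactinib, Stat3 among them at −1.20 (adjusted p = 9.5e-08), and with library size alone 1 was called higher, Tyk2 at 1.14. Cd5l, whose protein can bind p40, was at 0.00021 with LPS and 0.98 with defactinib in WT (adjusted p of 1 and 0.0108). The latter was called without WT LPS defactinib replicate 3, at 1.11 (adjusted p = 0.00901), with replicate 3 as the sole IRF5 KO LPS DMSO library, at 1.00, and with library size alone, at 1.19. Cd5l was also higher in WT than in IRF5 KO without LPS, by 1.39 (adjusted p = 0.00546).

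Among 10 listed activators of the subunit genes, 6 rose and 1 was lowered with LPS in WT, where 11.6% and 9.71% of all genes were called, and 4 rose with LPS in IRF5 KO, where 7.07% were. Rel, the c-Rel subunit of NF-kB known to drive Il12b and Il23a, rose by 2.56 (adjusted p = 2.02e-06) in WT and by 2.00 (adjusted p = 0.00018) in IRF5 KO, and Nfkb1 by 1.85 (adjusted p = 9.2e-07) and 1.38 (adjusted p = 0.00015). Spi1, which encodes PU.1, was at −0.78 and −0.50, and Irf5 at −0.45 and 0.14, all under the fold threshold, although Spi1 was called lower in WT with library size alone, at −1.16. Defactinib lowered 4 of the 10 in WT and raised 1, Batf3, at 1.19 (adjusted p = 0.00013), where 18.6% and 10.4% of all genes were called. Without WT LPS defactinib replicate 3, Batf3 was at 0.86 and not called, and 5 activators were lowered. Rel fell by 1.51 (adjusted p = 0.00018), from 515 to 561 CPM to 123 to 233 CPM, and Irf1 fell by 4.83 (adjusted p = 6.9e-07), from 543 to 622 CPM to 18.96 to 22.77 CPM. Irf1, a factor known to bind the promoters of Il12a and Il27, was named after its values were seen. Within the IRF5 KO libraries it was, like Il27, highest in replicate 3 with DMSO, with 51.4 and 50.5 CPM in replicates 1 and 2 and 213 CPM in replicate 3. Its rise with LPS in IRF5 KO was 1.13 (adjusted p = 0.0324), and 0.089 (adjusted p = 0.402) without replicate 3, which left 3 activators called. No activator was called for defactinib in IRF5 KO (0.919% of all genes were) with all libraries or without replicate 3 with DMSO. With replicate 3 as the sole DMSO library, where far more of all genes were called, Rel was at 1.34, Nfkbiz at 3.14 and Irf1 at −1.15. After LPS with DMSO, 3 activators were higher in WT than in IRF5 KO and 1, Nfkbiz, was lower, at −1.21 (adjusted p = 0.0377), where 14% of all genes were called higher and 11.8% lower. Nfkbiz was at −1.70 (adjusted p = 1.17e-07) without replicate 3 of IRF5 KO LPS DMSO, and turned to 1.13 (adjusted p = 0.00101) with that library alone.

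Of the 6 listed restraints on these genes or their mRNAs, 2 rose with LPS in WT and 3 in IRF5 KO, beside 11.6% and 7.07% of all genes. The count in IRF5 KO was 2 without replicate 3 with DMSO, and 2 with replicate 3 alone, where Zfp36 was at 0.21 (adjusted p = 0.546). Zc3h12a, which encodes the RNase Regnase-1 that degrades cytokine mRNAs, rose by 3.49 (adjusted p = 2.2e-07) in WT and by 1.83 (adjusted p = 0.00052) in IRF5 KO. Defactinib lowered 4 of the 6 in WT and raised 1, beside 18.6% and 10.4% of all genes. Zc3h12a fell by 3.89 (adjusted p = 7.7e-08) from 283 to 311 CPM to 16.7 to 22.5 CPM, and Atf3, a repressor of Toll-like receptor target genes, fell by 2.23 (adjusted p = 1.6e-08) from 626 to 762 CPM to 116 to 195 CPM. Zfp36, which encodes the mRNA-destabilising protein tristetraprolin, rose by 2.08 (adjusted p = 0.0015) from 67.9 to 79.6 CPM to 244 to 341 CPM. It was also lower in WT, at −2.57 on the log2 scale relative to IRF5 KO after LPS with DMSO (adjusted p = 0.00044), with IRF5 KO LPS DMSO at 604, 599 and 80.3 CPM. Replicates 1 and 2 of that group were thus high and replicate 3 was near the level of WT LPS DMSO. With replicate 3 alone, Zfp36 was at −0.17 (adjusted p = 0.441). Zc3h12a was 2.05 higher in WT in that comparison (adjusted p = 2.5e-05). Without replicate 3, 3 restraints were higher in WT instead of 1. Calls over all genes also rose, from 4036 to 5424, of which 54.4% and 60.1% were higher in WT. Nfil3 was at 0.44 with LPS and −0.57 with defactinib in WT, under the fold threshold. None of the 6 was called for defactinib in IRF5 KO with all libraries, beside 0.919% of all genes. This did not hold with replicate 3 as the sole DMSO library, where far more of all genes were called as well.

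**Figure D5:**
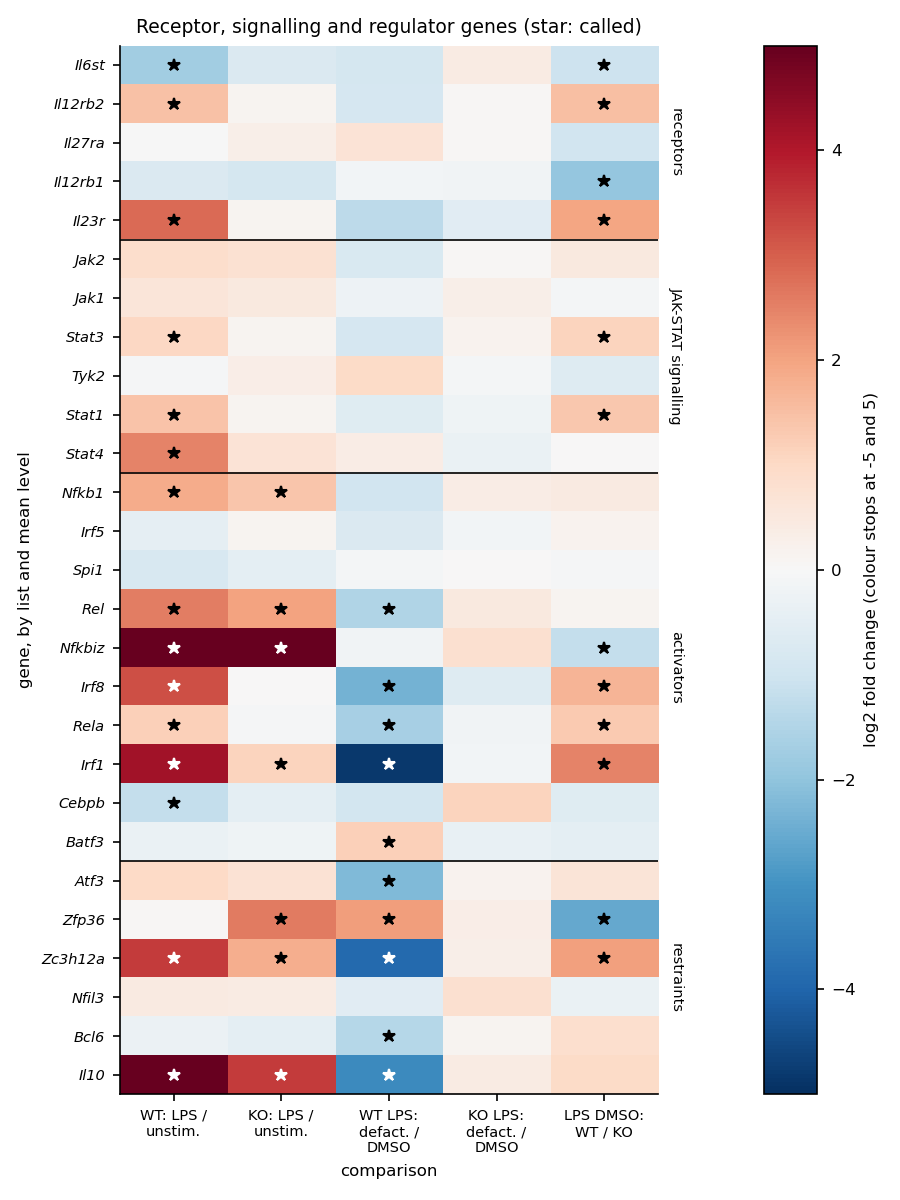
Log2 fold change of the listed receptor, signalling, activator and restraint genes (rows, by list and mean level) in 5 comparisons (columns); a star marks a call, and colour stops at 5 in either direction. Most calls are in the WT columns for LPS and defactinib, which over all genes held 3340 and 4552 calls. The IRF5 KO columns held 2091 and 144, and the genotype column 4036. No gene of these lists was called for defactinib in IRF5 KO, beside 0.919% of all genes.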

How the data were processed

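RNA-seq of BMDMs was deposited as 1 table of 18 libraries, 3 in each of 6 groups, and all were used. According to the methods and the table's header, the authors aligned reads to mm10 with STAR and counted read pairs of unique alignments over exons per Ensembl gene with featureCounts 1.6.3, reverse stranded. The deposited values are raw counts, not normalised. Names came from GENCODE M21, which held 50376 of the 50600 gene IDs.

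Counts were scaled by TMM, filtered with filterByExpr and fitted with edgeR 4.0.16 (R 4.3.3), 1 mean per group, robust, with no replicate block. The quasi-likelihood test was two-sided, with Benjamini-Hochberg adjustment over all 15663 tested genes in each of 12 comparisons. Calls needed an adjusted p below 0.05 and a log2 fold change beyond 1. SE is the size of the log2 fold change divided by the square root of F. The design gives libraries as biological replicates, so p-values measure the spread between them. With 39282181 to 61949143 pairs counted, 1 pair is about 0.02 CPM.

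Members, gene lists and tests were chosen with earlier results of these data known. Genes named are the members, Irf5, the receptors, the 4 genes of each other list with the highest mean level, and the 3 genes most like each member. Irf1, Batf3, Nfkbiz and Gata2 were named after their values were seen. Alternatives were DESeq2 1.42.0 size factors or test, limma-voom (limma 3.58.1), library size alone, no filter, a filter of 5 CPM in 3 libraries, the replicate block, only the groups compared, no fold threshold, a threshold inside the test, and leaving out libraries. Listed genes without the libraries that stand apart were computed after seeing the data.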

Additional observations from a re-analysis of the deposited data

Results flagged for a closer look

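The effect of a treatment differed between the genotypes, by the interaction test of edgeR, for 3 members. The rise of Il12b with LPS was 2.77 larger in WT than in IRF5 KO on the log2 scale, and that of Ebi3 0.81 larger. The effect of defactinib after LPS was at −6.84 in WT relative to IRF5 KO for Il12b, at −3.91 for Il23a and at −0.89 for Ebi3. The Ebi3 differences passed the adjusted p alone and not the fold threshold. By adjusted p alone, 2681 of 15663 genes passed for the interaction with LPS. For that with defactinib, 3568 genes passed both thresholds. For Il12b the direction itself differed, since all 3 defactinib libraries lay below the DMSO libraries in WT and above them in IRF5 KO, where the difference was not called.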

How the results depend on the processing

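Of 1728 values of single members under the alternatives, 1631 kept direction and call. With the direction kept, 46 lost and 29 gained a call, and 22 changed sign. Of the sign changes, 2 without IRF5 KO LPS DMSO replicate 3 and 1 without WT LPS defactinib replicate 3 also changed the call. Of the 5 members called with LPS in IRF5 KO, 3 remained when only the groups compared were fitted and 2 with the threshold inside the test. Over all genes, calls went from 2091 of 15663 to 130 of 15658 and to 327 of 15663 in these fits. For defactinib in IRF5 KO, DESeq2 called 1 member, Il27, where it called 523 of all genes, against 144 by edgeR. With IRF5 KO LPS DMSO replicates 1 and 2 left out, Il27 was at −5.49. The interaction with LPS had 2 members called by DESeq2, by limma-voom and with no fold threshold. Of all genes, 1958, 1888 and 2681 were called in these fits, against 1539 in the main fit. With the threshold inside the test 0 members were called, where 108 of all genes were. The interaction with defactinib had 4 members called by limma-voom and 4 with the replicate block. Of all genes, 3574 and 3618 were called there, against 3568 in the main fit. The causes were not tested. Leaving out 1 library at a time gave 3 to 5 members for LPS in IRF5 KO, 3 to 5 for defactinib in WT, 0 to 1 for defactinib in IRF5 KO, 2 to 4 for WT against IRF5 KO after LPS with DMSO, 2 to 3 for WT against IRF5 KO with defactinib, 2 to 4 for WT LPS defactinib against WT unstimulated and against IRF5 KO LPS DMSO, 1 to 2 for the interaction with LPS and 2 to 4 for that with defactinib. It gave 5 for LPS in WT, 4 for IRF5 KO LPS defactinib against unstimulated and 0 between unstimulated cells in every fit.

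Signs changed in these cases. Without IRF5 KO LPS DMSO replicate 3, Il27 was at −1.26 for LPS in IRF5 KO, 1.59 for defactinib in IRF5 KO and 1.87 for inhibitor-treated WT against vehicle-treated IRF5 KO cells. Without any other single library, these 3 values of Il27 lay between 4.14 and 4.85, −4.53 and −3.56, and −4.56 and −3.26. With replicates 1 and 2 of that group left out, Il12a and Il23a were at −0.37 and −0.42 for defactinib in IRF5 KO, Il23a at −0.30 for WT LPS DMSO against IRF5 KO LPS DMSO, and Il12a at −0.83 for inhibitor-treated WT against vehicle-treated IRF5 KO cells. In the last comparison Il12a was also at −1.39 by limma-voom, −0.10 with the replicate block, and, with single libraries left out, from −3.13 (WT LPS defactinib replicate 3) through −0.13 and −0.091 (replicate 1 or 2 of the vehicle group) to 1.41 (its replicate 3). Between unstimulated cells Il12a was at −0.068 with library size alone and at −0.62 and −0.60 without WT replicate 3 or IRF5 KO replicate 1, in a range up to 0.67. Between the defactinib groups Il27 was at −0.076 with the replicate block, −0.60 without WT replicate 3 and −0.078 without IRF5 KO replicate 3, in a range up to 0.88, and Il12a at 0.076 and 0.13 without WT replicate 1 or 2, in a range down to −3.81. For IRF5 KO LPS defactinib against unstimulated, Il27 was at −0.045 with library size alone and −0.24 without defactinib replicate 2, in a range up to 0.72.

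Library size alone moved the median of all genes to −0.38 for LPS in WT and 0.29 for defactinib in WT, and the share of calls that were higher from 54.5% to 31.4% and from 35.9% to 49.2%. With it Ebi3 was at 0.89 and 0.79 for WT and IRF5 KO LPS defactinib against unstimulated and not called. No source says that equal replicate numbers pair libraries. Over 45 pairs the median correlation of deviations was 0.00455 and 4 exceeded 0.1, while 12 of 18 libraries matched their own number best, a hint of pairing from the data. With the replicate block, Il12a and Il27 were called in the interaction with defactinib (−4.65 and −5.45, adjusted p of 0.0169 and 0.0428), Ebi3 was called for defactinib in WT (−1.02), and Il27 lost its call for LPS in IRF5 KO (3.48, adjusted p = 0.0505) and for inhibitor-treated WT against vehicle-treated IRF5 KO cells (−3.02, adjusted p = 0.0879). The filter of 5 CPM in 3 libraries left Il12a out. Few counts limit Il12a, Il23a and Il27 in unstimulated cells.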
